A study of Mus musculus with 12 samples.

Results

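The sequences described here are 877 small RNA sequences of 26 to 32 nt from mouse testis, the length of piRNAs, whose level was much lower after sodium periodate oxidation. They were taken from a deposited table of 1018402 sequences with values in RPM, the reads of a sequence scaled to the reads of its library. A sequence was included when its mean over the 6 libraries before oxidation was at least 5 RPM and its mean after oxidation was at most 0.25 of that before it at 50 ng of RNA, and likewise at 100 ng. Of the 18488 sequences of that length and level, 877 (4.74%) met both ratios, and they held 3.5% of the RPM of these sequences before oxidation. The other 17611 serve as the comparison. The RNA was total RNA of testes, from C57BL/6 males that were 4 months old, with no other genotype or treatment given, and each of the 6 groups held 2 technical replicates: 10, 50 or 100 ng of RNA, each before and after oxidation. The p-values below therefore measure the spread between libraries of the same RNA and not between animals. Spike-in RNAs, methylated and unmethylated, were added in proportion to the RNA input.

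A piRNA is a small RNA bound by a PIWI protein, and in the germ line these RNAs silence transposons and, in the adult testis, cleave other transcripts. Primary piRNAs mostly start with U, and piRNAs made by PIWI cleavage of a transcript carry an A at the tenth base, the so-called ping-pong signature. The methyltransferase HENMT1 adds a methyl group to the 2'-hydroxyl of the last base. Periodate oxidizes the free 2',3'-hydroxyls of an unmethylated 3' end, which can then not be ligated to an adapter, so unmethylated RNAs such as animal miRNAs are lost from the library and methylated ones are kept. The files use T for U in all sequences.

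The libraries held 1924201 to 3347735 reads by the RPM denominator recovered from the values. The treatment acted on known unmethylated RNA in all inputs: the summed RPM of the miRNA table was 322-fold, 495-fold and 490-fold lower after oxidation at 10, 50 and 100 ng. Of the spike-ins, the unmethylated gave 4123 to 15750 reads before and 7 to 25 reads after oxidation, while the methylated gave 28325 to 42523 before and 212579 to 300939 after. Of 6 miRNAs listed as testis germ cell markers, 4 (miR-741-3p, miR-871-3p, miR-470-5p and miR-34c-5p) stood at 1081 to 33938 RPM before oxidation, while miR-449a-5p stood at 6.17 to 39.6 RPM and miR-34b-5p at 0 to 1.45 RPM. Markers of liver (miR-122-5p), red cells (miR-451a), brain (miR-124-3p) and muscle (miR-133a-3p) stood at 6.07 RPM or less. RPM is a share of each library, so a sequence that is kept gains RPM when the miRNAs are lost.

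The most abundant of the 877 sequences that match a single position in the annotated transcripts (GENCODE M21 on GRCm38) and lie outside untranslated regions are printed first, since their letters and read numbers carry the result. Capitals mark the first, the tenth and the last base, and the number after each gene symbol is the length in nt.
Nemp1-31: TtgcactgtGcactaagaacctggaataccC
Gm21269-30: TgacagaatGacagagggctatctatgctG
Gm30132-30: TagtattctGaaagataccacagcttggcA
1700029M20Rik-32: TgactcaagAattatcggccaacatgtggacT
Gm43353-28: TgagatccaCaggtaaacctatctgaaA
Gm49794/Mir7217-28: GtgagacagAagggcacgcctacggccC

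Nemp1-31 lies at chr10:127694597-127694627 on the plus strand, in a coding exon of Nemp1, which encodes a protein of the inner nuclear membrane, and has the sense orientation. Gm21269-30 lies at chr7:73817804-73817833 on the plus strand, in an exon of the long intergenic non-coding RNA Gm21269. Gm30132-30 lies at chr8:93418447-93418476 on the minus strand and 1700029M20Rik-32 at chr4:135629837-135629868 on the plus strand, both in exons of long intergenic non-coding RNAs. Gm43353-28 lies at chr5:113325002-113325029 on the minus strand, antisense to an exon of the gene model Gm43353. Gm49794/Mir7217-28 lies at chr17:27355750-27355777 on the plus strand, where an exon of the non-coding RNA Gm49794 overlaps the hairpin of Mir7217, and it is the only sequence among these 6 that starts with G.

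Before oxidation Nemp1-31 stood at 177 and 158 RPM (10 ng), 142 and 155 RPM (50 ng) and 107 RPM in both libraries of 100 ng. After oxidation it stood at 16.2 and 19.2 RPM, 12.9 and 13.8 RPM, and 16.4 and 34.1 RPM at the same inputs. Low values at 50 and 100 ng follow from the choice, here and for the sequences below, and a remainder of this sequence was read in all 6 libraries after oxidation. At 10 ng, the input left out of the ratios by which the sequences were chosen, it fell by 3.18 on the log2(RPM + 1) scale (SE 0.23, limma adjusted p = 0.00456). Gm21269-30 stood at 125, 137, 123, 134, 102 and 78.4 RPM before oxidation at 10, 50 and 100 ng, 2 libraries each. After oxidation it had no read in either library at 10 ng, 3.49 and 5.79 RPM with 50 ng, and 4.78 and 5.37 RPM with 100 ng. Against a floor of 3 reads over both 10 ng libraries (0.734 RPM) it was at least 179-fold lower there, and limma called it lower (adjusted p = 0.00456). In the 10 ng libraries the values after oxidation lay below those before it for both sequences.

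Gm30132-30 stood at 43.6 and 57.4 RPM (10 ng), 55.4 and 52.0 RPM (50 ng) and 56.0 and 64.9 RPM (100 ng) before oxidation. After it, the values were 0 and 0, 6.63 and 4.90, and 11.4 and 12 RPM, so the level at 10 ng was at least 68.7-fold lower (limma adjusted p = 0.00456). For 1700029M20Rik-32 the values before oxidation were 28.9, 54.5, 48.5, 41.5, 42.2 and 32.3 RPM, and those after it were 0, 0.520, 10.1, 8.01, 4.18 and 6.63 RPM, in the order of input. It was called lower at 10 ng (log2 difference -5.05, SE 0.59, limma adjusted p = 0.00874), with 0 and 1 read in the libraries after oxidation. Gm43353-28 went from 39.3 and 41.4 RPM to 0 and 13.5 RPM with 10 ng, from 56.2 and 32.9 to 7.68 and 2.23 RPM at 50 ng and from 39.1 and 36.3 to 6.27 and 9.47 RPM at 100 ng. Its 10 ng libraries after oxidation differed so much from each other that the change did not pass the test (log2 difference -3.44, SE 1.56, limma adjusted p = 0.191).

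Gm49794/Mir7217-28 stood at 48.2, 34.9, 42.3, 35.2, 31.4 and 26.5 RPM before oxidation and had no read in any of the 6 libraries after it. With a floor of 3 reads over those libraries (0.191 RPM) it was at least 191-fold lower, and at 10 ng alone at least 56.6-fold lower (limma adjusted p = 0.00465). It belongs to 122 of the 877 sequences (13.9%) without a read in any library after oxidation. The most abundant of those had a mean of 43.1 RPM before oxidation and was at least 226-fold lower. Among the other 17611 sequences none was at 0 in all 6, which the choice by ratio fixes.

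The 6 most abundant of all 877 matched no annotated transcript, and with no genome at hand their letters are not shown. The first, of 31 nt with T at its first base, G at base 10 and C at its end, had a mean of 2171 RPM before oxidation and held 12.8% of the RPM of all 877. At 10 ng it went from 2222 and 1865 RPM to 83.2 and 103 RPM, and it fell by 4.44 on the log2 scale (SE 0.16, limma adjusted p = 0.00456). At 50 ng it went from 1806 and 1742 to 349 and 240 RPM, and at 100 ng from 2589 and 2803 to 413 and 506 RPM. Its share left was thus larger at 50 and 100 ng (ratios 0.166 and 0.170) than at 10 ng (0.0455). The third most abundant, of 30 nt, kept similar levels after oxidation at every input, 66.6 and 71.7 RPM (10 ng), 54.1 and 60.5 RPM (50 ng), and 54.7 and 61.9 RPM (100 ng), from 260 to 321 RPM before it. All 6 start with T, and together they held 19.9% of the RPM of the 877, of which 489 (55.8%) had a mean below 10 RPM.

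In sum, the 877 sequences held 16834 and 16832 RPM before oxidation with 10 ng, 16750 and 16834 RPM with 50 ng, and 17234 and 17190 RPM with 100 ng. After oxidation they held 1879 and 1850, 2029 and 1568, and 1960 and 1979 RPM. About the same share was left at each input, 11.1% at 10 ng, 10.7% at 50 ng and 11.4% at 100 ng, of which the last 2 follow from the choice. The miRNA table kept 0.310%, 0.202% and 0.204% of its RPM at these inputs. The other 17611 sequences kept 80.0% of their RPM at 10 ng (465259 ± 2653 before and 372243 ± 14798 after, SD, n = 2), and had 109% and 119% at 50 and 100 ng. At 10 ng, where the ratios were not used in the choice, the oxidation-sensitive sequences lay between miRNAs and the other sequences of piRNA length. Per read of the methylated spike-in, the log2 ratio of after to before was -6.95, -5.91 and -5.59 for the 877 and -4.10, -2.58 and -2.21 for the others.

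**Figure D1:**
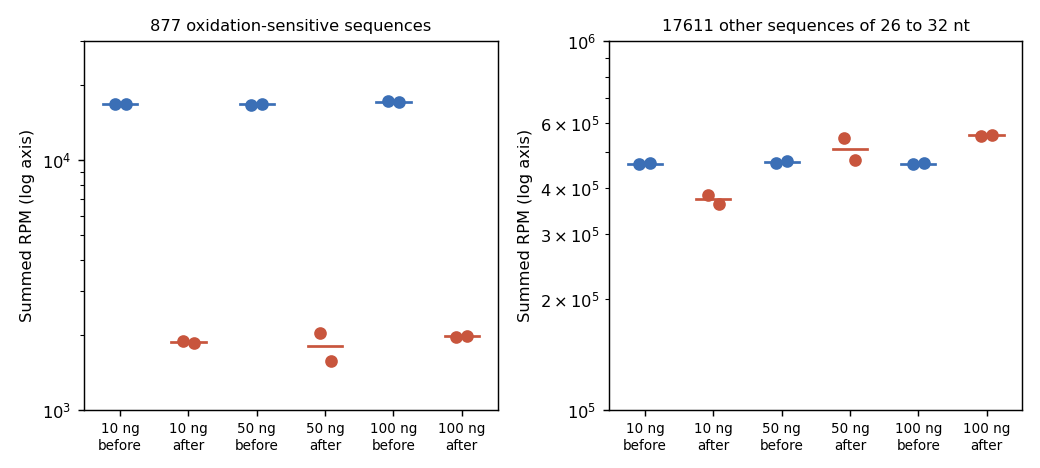
Summed RPM of the 877 oxidation-sensitive sequences and of the other 17611 of 26 to 32 nt in each of the 12 libraries on log axes, by input, before (blue) and after (red) oxidation. Each point is a library and each line a group mean; the sensitive sequences drop from 16750 to 17234 RPM before oxidation to 1568 to 2029 RPM after it.

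At 50 ng the ratio of after to before among the 877 had a median of 0.0754, and at 100 ng 0.0918. At the limit itself, Gm5878-30 had a ratio of 0.2498 at 100 ng and D130017N08Rik-26 of 0.2425 at 50 ng, just inside, while Gm21388-28 had 0.2511 at 100 ng and Gm49794-28 0.2544 at 50 ng, just outside. These 4 are shown because few reads separate them.
Gm5878-30: AtgaaatgaAtgaggacctggtcctgtggG
D130017N08Rik-26: GaaatagatGaaagaaactcggagaC
Gm21388-28: TagtggatgAatgcaagtcggagtagaC
Gm49794-28: TagcggacaCctgtgcttcattctgtgG

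All 4 lie in sense orientation in exons of long non-coding RNAs, at chr6:85113383-85113412 (minus strand), chr5:143764650-143764675, chr3:34876195-34876222 and chr17:27358220-27358247 (plus strand) in the order printed. After oxidation at 100 ng Gm5878-30 had 12 and 4 reads and Gm21388-28 had 10 and 3 reads. The limit thus runs between sequences with similar read numbers.

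The ratios at 10 ng were not used in the choice, although the limit of 5 RPM includes the 10 ng libraries before oxidation. At this input 648 of the 877 sequences (73.9%) fell and none rose (limma on log2(RPM + 1), with p adjusted by the Benjamini-Hochberg method and called under 0.05), against 36.7% that fell and 5.63% that rose of all 20597 sequences tested, of any length, with at least 5 RPM before oxidation. Of the other 17611 of the same length, 5931 (33.7%) fell and 1026 rose. The median log2 difference was -3.10 for the 877, -1.63 for the others and -1.79 for all tested. Of the 877, 862 had a negative difference and 727 (82.9%) kept at most 0.25 of their level at 10 ng, against 7063 of the others (40.1%). With the limit set on the 50 and 100 ng libraries before oxidation alone, 577 of 794 (72.7%) fell, against 34.5% of all tested.

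Loss of all reads was common at 10 ng. No read was found after oxidation in either 10 ng library for 623 of the 877 (71.0%) and for 5138 of the others (29.2%). At 50 ng the corresponding shares were 31.6% and 0.539%, and at 100 ng 22.6% and 0.170%. A sequence at 0 meets the ratio limit, so the choice favours these differences at 50 and 100 ng. The 10 ng libraries after oxidation also had the lowest denominators (2162327 and 1924201 reads), and the part of this lower detection in the calls at 10 ng was not tested. When library medians or quantiles were set equal, limma called 0 and 67 of the 877 lower, against 0 and 801 (3.89%) of all 20597. At an unadjusted limma p below 0.05, 46 and 217 were lower, against 278 and 3181 of all. After oxidation at 10 ng, reads were found for 60.3% of the others in replicate 1 and for 49.3% in replicate 2, so many values were 0. With medians set equal, the median log2 difference of all was 0.32. The part of the values at 0 in the loss of calls was not tested. With quantiles 7 of the 877 were called higher. edgeR's count test called 617 of the 877 lower with TMM scaling and 605 without, against 35.2% and 33.6% of all. Without replicate 1 of the 10 ng libraries after oxidation, the median log2 difference was -3.24 for the 877 and -2.44 for all tested. Without replicate 2 of them it was -3.15 and -1.68. These fits leave a single library after oxidation, so only the size is given.

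**Figure D2:**
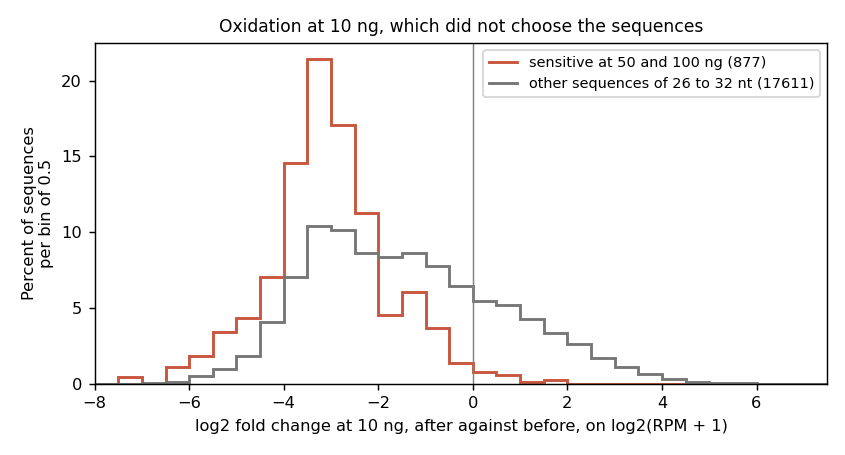
Distribution of the limma log2 difference of RPM + 1 (after minus before oxidation) at 10 ng for the 877 sequences and for the other 17611 of 26 to 32 nt, as a percent of each set. The sensitive sequences centre on -3.10 and the others spread around -1.63, with the 2 distributions overlapping.

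A minority behaved differently at 10 ng. Of the 877, 45 (5.13%) had a higher mean after than before oxidation there, against 5830 of the 17611 others (33.1%). Among those that could be printed, Gm2762-32, Gm42811-29 and Gm5878-30 above had the highest log2 differences at 10 ng. They are shown as the extremes of that value.
Gm2762-32: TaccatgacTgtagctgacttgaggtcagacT
Gm42811-29: TggcataatGagaatatctcacggtatcT

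Gm2762-32, in an exon of the non-coding RNA Gm2762 (chr13:53402624-53402655, plus strand), stood at 22.9 and 14.5 RPM before and 29.1 and 14.6 RPM after oxidation at 10 ng. At 50 ng it went from 26.4 and 30.8 to 1.05 and 1.78 RPM, and at 100 ng from 35.4 and 35.7 to 4.48 and 5.37 RPM. It was low after oxidation in 4 libraries and not in the 2 of the lowest input. The 10 ng difference was 0.17 (SE 0.56, limma adjusted p = 0.832). Gm42811-29, antisense to an exon of Gm42811 (chr6:127808466-127808494, plus strand), stood at 5.00 and 6.17 RPM before and 6.01 and 13.0 RPM after oxidation at 10 ng, with 0 to 3.12 RPM in the other 4 libraries after it. Its 10 ng difference of 0.59 (SE 0.58) did not pass the test either (limma adjusted p = 0.492). Gm5878-30 had 25 and 0 reads in the 10 ng libraries after oxidation.

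Length differed little. The 877 had a median length of 30 nt and the others of 29 nt, and 30 nt was the most common length in both (27.4% and 27.9%). Sequences of 31 and 32 nt made up 18.7% and 7.18% of the 877 and 16.6% and 5.07% of the others. Those of 26 and 27 nt made up 7.41% and 7.41% against 8.65% and 9.93%. The oxidation-sensitive set was thus shifted slightly to the long side of a shared peak.

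The first base was T in 798 of the 877 (91.0%, exact Clopper-Pearson 95% interval 88.9 to 92.8%) and in 92.6% of the others, so the share of the others lies inside the interval. A at the tenth base was found in 38.2% (35.0 to 41.5%) against 33.4%, but this order depended on low levels: with at least 10 RPM the shares were 33.5% (130 of 388) and 34.3%, and with at least 20 RPM 31.9% (51 of 160) and 35.7%. T at that base was found in 15.2% against 23.9%. Both T at the first and A at the tenth base were found in 33.0% against 30.2%, and neither in 3.76% against 4.21%. Sequences without T at the start but with A at the tenth base, the pattern of a secondary piRNA, made up 5.25% against 3.20%. These intervals cover counting error only, and sequences that share a 5' end are not independent.

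The last base, the one that carries the methyl group in a piRNA, was G in 17.7% of the 877 (15.2 to 20.4%) and in 8.81% of the others. It was C in 29.2% (26.2 to 32.3%) against 36.6%. A (16.9%, 14.5 to 19.5%, against 16.6%) and T (36.3%, 33.1 to 39.5%, against 38.0%) had similar shares. The base before the last was C in 39.6% against 28.5% and G in 17.2% against 30.4%. Read as pairs, the last 2 bases were CT in 23.8% against 14.7% and TG in 8.89% against 2.79%, while GC (5.02% against 10.4%) and GT (3.65% against 9.31%) were scarcer. The fourth base from the 3' end was G in 46.5% against 29.1%. With at least 20 RPM, G was found there in 55% against 29.3%, and at the last base in 15.6% against 8.24%.

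Differences lay at the 5' end too. The second base was G in 45% against 34.3% and A in 27.8% against 34.7%, and the fifth base was G in 27.9% against 15%. With at least 20 RPM the fifth base was G in 17.5% against 13.7%. The median GC content was 48.1% for the 877 and 42.3% for the others. Of the 3745 sequences with a GC content of at least 50%, 352 (9.40%) were oxidation-sensitive, and of the 6224 below 40%, 141 (2.27%). GC content and base shares move together here, and their separate parts were not tested.

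**Figure D3:**
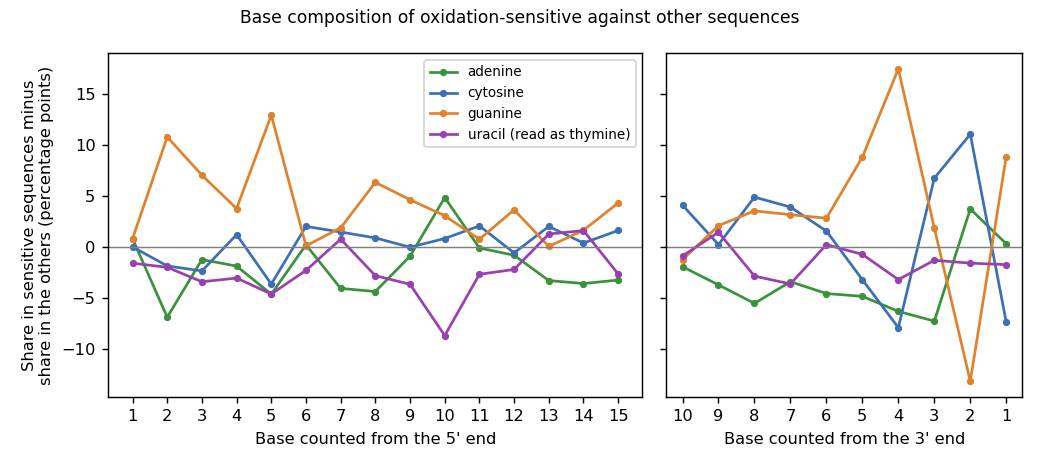
Difference in the share of each base (percentage points, the 877 sequences minus the other 17611) at positions counted from the 5' end and from the 3' end. The first base hardly differs (91.0% and 92.6% T), while G is more common at the fourth position from the 3' end (46.5% and 29.1%) and at the last (17.7% and 8.81%).

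The oxidation-sensitive sequences were slightly less abundant than the others before oxidation, with a median of 9.13 RPM against 10.4 RPM. Their share was smaller at higher abundance: 5.46% of the sequences of 5 to 10 RPM, 4.74% of those of 10 to 20, 3.64% of 20 to 50, 3.48% of 50 to 100, and 2.24% (16 of 715) of those of at least 100 RPM. A ratio from few reads passes a limit by counting error more often, and the part of that in the higher share at low levels was not tested. At 10 ng, 76.1% of the sensitive sequences of 5 to 10 RPM fell, against 39.5% of the others of that level. In the range of 20 to 50 RPM it was 69.6% against 20.7%, and in the 16 of at least 100 RPM 62.5% against 47.8%. The higher share of calls was thus present in each range of abundance.

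Many sensitive sequences had a relative with the same 5' start outside the set. When sequences were grouped by their first 20 bases, the 877 fell into 736 groups. Of these, 394 held sensitive sequences only, and 342 also held another sequence of 26 to 32 nt with the same 5' start. A total of 407 sensitive sequences had such a partner, of which the most abundant was taken. The sensitive sequence was longer than the partner in 231 cases, by 1 base in 106 of them, shorter in 174, by 1 base in 93 of them, and of equal length in 2. Of the 736 groups, 255 (34.6%) kept at most 0.25 of their RPM at 50 and 100 ng when all their lengths were summed. The examples below, chosen for abundance, show the bases by which the longer of each pair extends at its 3' end in capitals.
Gm21269-30: tgacagaatgacagagggctatctatgctg
Gm21269-31: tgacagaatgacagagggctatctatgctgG
Gm30132-30: tagtattctgaaagataccacagcttggca
Gm30132-32: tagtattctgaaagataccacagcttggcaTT
1700029M20Rik-32: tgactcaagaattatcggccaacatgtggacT
1700029M20Rik-31: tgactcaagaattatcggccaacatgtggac
Gm43353-28: tgagatccacaggtaaacctatctgaAA
Gm43353-26: tgagatccacaggtaaacctatctga
Gm21269-29: taagtaatcgagaaacgactaaaaaaacg
Gm21269-32: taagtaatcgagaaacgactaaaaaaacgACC

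Gm21269-31, which is Gm21269-30 with a further G, stood at 122 and 126 RPM before oxidation with 10 ng, 100 and 83.0 RPM with 50 ng, and 70.5 and 70.7 RPM with 100 ng. After it the values were 17.6 and 26.5 RPM, 45 and 22.3 RPM, and 43.6 and 47.4 RPM. The sequence 1 base shorter, at a similar level before oxidation, had 0 to 5.79 RPM after it. At 10 ng both fell, with a log2 difference of -2.46 for the longer (SE 0.31, limma adjusted p = 0.00998) and -7.04 for the shorter (SE 0.41, limma adjusted p = 0.00456). The fitted size for a sequence at 0 depends on the pseudocount.

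Gm21269-29 and Gm21269-32 start at the same base of a second site in Gm21269 (chr7:73819463-73819491 and chr7:73819463-73819494, plus strand). The 32 nt form stood at 186 and 159 RPM before and 450 and 372 RPM after oxidation at 10 ng and rose by 1.24 (SE 0.15, limma adjusted p = 0.0092). It stood at 312 and 306 before and 414 and 597 RPM after it at 50 ng, and at 348 and 358 before and 496 and 436 RPM after it at 100 ng. The 29 nt form stood at 18.2, 26.9, 37.6, 32.9, 41.5 and 32.6 RPM before oxidation and at 0, 0, 8.37, 0, 8.66 and 5.37 RPM after it. The form with 3 more bases was higher in every library after oxidation than in the libraries of its own input before it. At 10 ng the 29 nt form was at least 30.7-fold lower (limma adjusted p = 0.00512).

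Gm30132-32 had ratios of after to before of 1.62 at 50 ng and 1.95 at 100 ng, where Gm30132-30, 2 bases shorter, had 0.107 and 0.193. At 10 ng it went from 93.2 and 98.0 RPM to 12.5 and 0 RPM, a change that did not pass the test (limma adjusted p = 0.0964). Gm43353-26 had ratios of 0.643, 1.6 and 1.59 at 10, 50 and 100 ng, where Gm43353-28, 2 bases longer, had 0.167, 0.111 and 0.209. 1700029M20Rik-31 had ratios of 0.186, 0.574 and 0.477, where the form longer by 1 base had 0.00623, 0.201 and 0.145. The sensitive form was thus the longer of the pair at some sites and the shorter at others.

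Over the 407 pairs, the partner was the more abundant form, with a median of 20 RPM before oxidation against 10.1 RPM. Its median ratios with 10, 50 and 100 ng were 0.188, 0.575 and 0.664, below the medians of all the others (0.480, 0.966 and 1.07). At 10 ng the sensitive form had the lower log2 difference in 263 of the 407 pairs (64.6%), with a median difference between the forms of -0.76. There 294 of the sensitive forms (72.2%) and 168 entries for their partners (41.3%) were called lower, a partner counting again for each sensitive form it serves. The lower abundance of the sensitive forms moves with this difference, and its part was not tested.

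**Figure D4:**
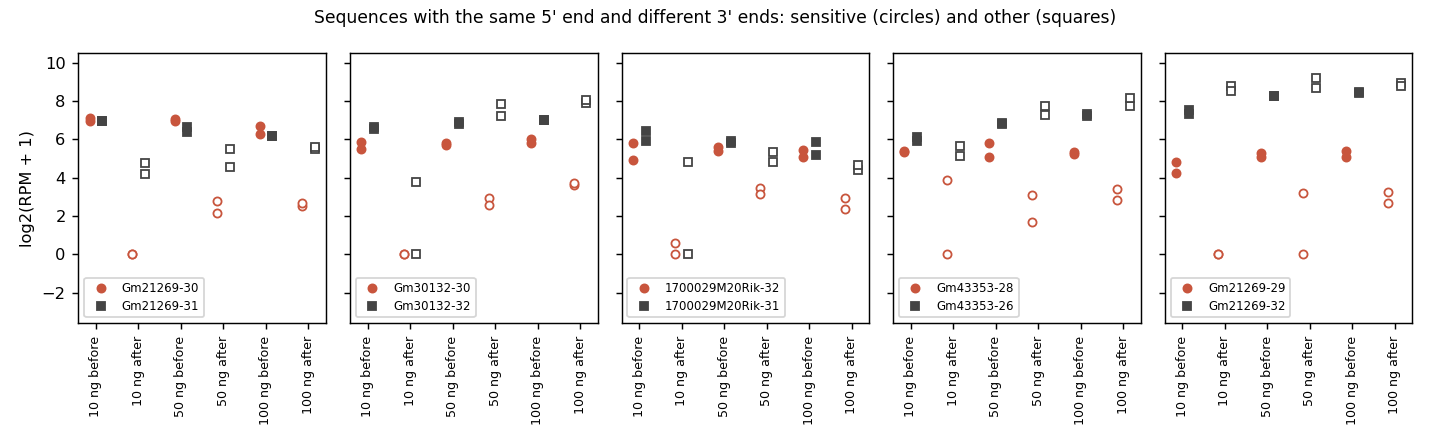
Levels in log2(RPM + 1) of 5 pairs of sequences with the same 5' end in each library, before (filled) and after (open) oxidation at 10, 50 and 100 ng. Circles are the oxidation-sensitive form and squares the other form of the pair. At 50 and 100 ng the squares after oxidation lie above the circles in every pair, which the choice by ratio at these inputs favours. At 10 ng, in replicate 2 after oxidation, 1700029M20Rik-31 (square) is at 0 and 1700029M20Rik-32 (circle) at 0.520 RPM, and both Gm30132 forms are at 0. In the other pairs the squares after oxidation lie above the circles at 10 ng too.

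The share of sensitive sequences was larger among those that match many places in the transcripts. This share was 4.27% (678 of 15871) among those without a match in the transcripts and 5.02% (116 of 2309) among those with 1 position. It was 18.3% (32 of 175) among those with 2 to 9 positions and 38.3% (51 of 133) among those with 10 or more. All 51 matched transcripts in both orientations, at up to 828 positions. Their summed level was 593 to 860 RPM in the libraries before oxidation and 0 to 30.5 RPM in those after it. The other 82 sequences with 10 or more positions held 2211 to 3292 RPM before and 1043 to 2052 RPM after oxidation. The choice by ratio favours this contrast at 50 and 100 ng. At 10 ng the 51 went from 860 and 757 RPM to 22.2 and 0 RPM. The 82 went from 3031 and 3292 RPM to 1043 and 1055.5 RPM there. Of the 51, 25 had no read in any library after oxidation, which the choice favours too. Grouped by their first bases as above, the 51 fell into 33 groups, so they are not all independent. At 10 ng, 45 of the 51 (88.2%) fell, against 39.0% of the 82 others.

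Each sequence was placed in a single annotation class, the earliest it matched in a fixed order. After rRNA, snRNA and similar classes came small structured RNA, miRNA hairpin, protein-coding exon, long non-coding exon and pseudogene, all in sense, then antisense. So counted, 24 of the 877 fell in the classes of small structured RNA models (18) or miRNA hairpins (6). Of these 24, 22 had 67 or more positions. The 6 is not the number that matched hairpins, as the hairpin model Gm22002 alone was matched by 8. Among the other 17611, 2 and 17 fell in these classes. None of either set matched an annotated rRNA, mitochondrial RNA, snRNA or snoRNA in sense, and nuclear tRNA genes are not part of these transcripts. The class of protein-coding sense exons took in 7.64% of the 877 and 2.74% of the others. Sequences with 2 or more positions made up 9.46% of the 877 and 1.28% of the others, and any match in such a gene could place them here. A coding sequence was overlapped by 32 of the 51 with 10 or more positions and by 6 of the 116 with 1 position. The part of many positions in this share was not tested. Sense exons of long non-coding RNAs, the class that holds many annotated piRNA precursors, took in 9.01% and 8.73%. The antisense class took in 3.31% and 1.95%. It leaves out sequences that matched in antisense but also matched an earlier class in sense. No match was found for 77.3% and 86.3%.

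**Figure D5:**
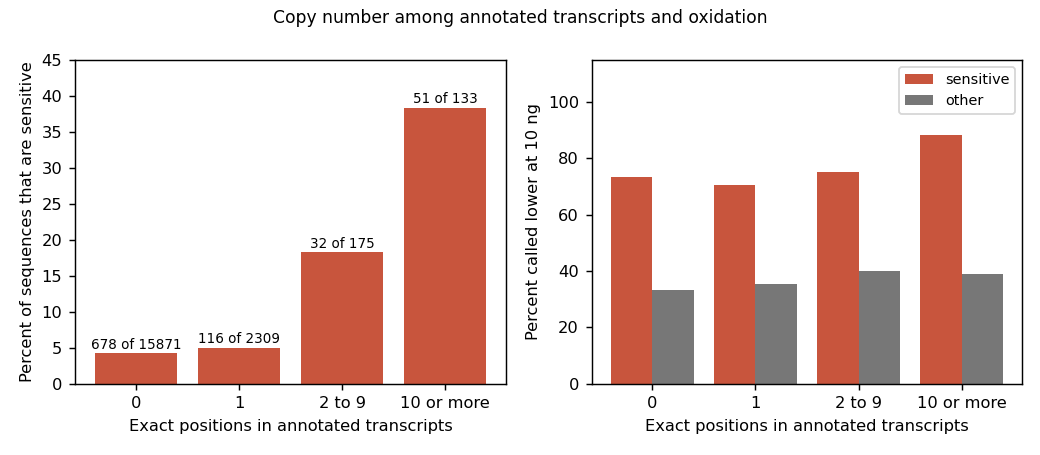
By the number of positions at which a sequence matches the annotated transcripts, the left panel gives the percent of the 18488 sequences of 26 to 32 nt that are oxidation-sensitive and the right panel the percent of the sensitive (red) and other (grey) sequences called lower at 10 ng. The left bars go from 4.27% for no match to 38.3% for 10 or more positions, where the right bars stand at 88.2% and 39.0%.

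Of the 877, 678 (77.3%) matched no annotated transcript and are left out here. The sensitive sequences that did match were spread over many transcripts and were a small part of the transcripts with the most of them. Sequences that matched a single gene, in either orientation, were counted for that gene. Gm21269 held 17 of them among 256 sequences (6.64%) and 3.16% of its RPM before oxidation. Gm49794 held 13 of 209, Gm10505, on chromosome 17 like Gm49794, 9 of 79, and D130017N08Rik and Gm30132 5 of 66 each. In Gm21269, the other sequences had median ratios of 0.502, 0.894 and 1.02 at 10, 50 and 100 ng. In Gm49794 these were 0.530, 0.877 and 0.911. Around the sensitive sequences of these transcripts lay many with little change at 50 and 100 ng. The part was larger elsewhere: over the 12 genes with 3 or more of the 877, these held 2.96% to 55.7% of the RPM counted for the gene. The share was 16.7% in Nemp1 (3 of 55 sequences) and highest in the processed pseudogene Gm47367 (4 of 8 sequences). None of the 877 fell in the pseudogene sense class, so the 4 of Gm47367 are antisense to it.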

How the data were processed

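The 12 libraries hold RNAs of 17 to 40 nt made from total RNA of mouse testis. The authors deposited RPM values for piRNA sequences and miRNAs and raw read counts for spike-ins. Per the submitters' processing notes, Bowtie and the builds mm10 and hg38 were used; the role of hg38 and the RPM denominator are not given in the sources used here. All piRNA values of the deposited table were whole reads within 0.01 of a read (100% in each library), so denominators and reads were recovered from the RPM steps.

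Ratios used group means of RPM. At 10 ng, log2(RPM + 1) of the 20597 sequences with at least 5 RPM before oxidation over 4 libraries was modelled with the trend option of limma 3.58.1 in R 4.3.3, and p was adjusted by Benjamini-Hochberg. The script was tested on simulated data. Sequences were matched exactly, on both strands, to GENCODE M21 transcripts (GRCm38, the mm10 assembly), with miRNA hairpins from RefSeq (GRCm38.p6). edgeR 4.0.16 was an alternative on the recovered reads.

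Sequences were named only with 1 transcript position, outside untranslated regions and chromosome 18. Those named were the most abundant, those lowest and highest at 10 ng and those next to the ratio limit. The most abundant such pairs with the same first 20 bases were named too. The sequences and lists were chosen with earlier results of these data known. A count of 0 was given a floor of 3 reads. Intervals and floors cover counting error only, as no molecular identifiers are given.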

Additional observations from a re-analysis of the deposited data

Results flagged for a closer look

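Of the 877 sequences, 3 were higher in both libraries after oxidation at 10 ng than in both before it, and lower in all 4 after oxidation at 50 and 100 ng than in those before it. The difference between inputs was not tested. They were picked after their values were seen, had no match in the transcripts and started with T. The first, of 29 nt, went from 3.57 and 3.99 RPM to 18.5 and 10.9 RPM at 10 ng and stood at 0.445 to 2.44 RPM after oxidation at the other inputs. The second, of 30 nt, went from 5.36 and 11.3 to 38.4 and 17.7 RPM, with 0 to 2.21 RPM at the other inputs. The last, of 28 nt, went from 5.36 and 12.3 to 12.5 and 27.5 RPM, with 0 to 1.49 RPM there. None passed the test at 10 ng (limma adjusted p = 0.0856, 0.165 and 0.329).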

How the results depend on the processing

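The 648 sequences called lower at 10 ng became 294 (of 434 tested, against 22.9% of all sequences) with 5 RPM required over all 12 libraries. With 20 RPM they became 108 (of 160, against 26.5%). Without a filter limma called 0 (670 at an unadjusted p below 0.05, against 28938 of all 377068 tested). With centred library medians it called 0 (46 at that p, against 278 of all 20597). With quantile normalization it called 67, against 801 of all. On leaving out each 10 ng library, which leaves a single library in a group, the median log2 difference of the 877 was -3.24 to -3.15. With a replicate block 662 were called lower, against 36.6% of all tested. The replicate numbers did not pair the libraries (correlations of deviations from group means -0.0457 to 0.0151). Of all tested sequences, 7550 fell and 1159 rose, against 801 and 912 after quantile normalization and 18439 and 29 after scaling to methylated spike-ins. The median of all moved from -1.79 to 0.32 with centring, 0.00053 with quantiles, -3.13 with spike-ins, and -1.55 and -1.28 in edgeR with and without TMM. The cause was not tested.

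The number of sensitive sequences, 877, was 388 at 10 RPM, 160 at 20 RPM, 404 at a ratio of at most 0.125, 2389 at 0.5, 438 with 0.25 required in every library, and 11613 per methylated spike-in read. T at the first base (91.0%) became 97.5% at 20 RPM and 88.6% at 0.125. A at the tenth base (38.2%) became 33.5% at 10 RPM, 31.9% at 20 RPM, 43.3% at 0.125 and 34.9% with spike-ins. The last base was A in 14.4% (every library), C in 33.1% (20 RPM) and 33.8% (spike-ins), G in 15% (0.5) and 11% (spike-ins), and T in 39.6% (0.125).

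For the named sequences, 200 of 245 log2 differences kept their direction and call, 21 lost the call, 10 gained it and 14 turned. Turned values were, with spike-ins, -2.50 (Gm21269-32), -2.98 (Gm2762-32) and -2.07 (Gm42811-29); with centring, 1.47 (Gm43353-26), 0.56 (Gm21388-28), 1.73 (Gm5878-30) and 0.031 (D130017N08Rik-26); with quantiles, 1.56 (Gm5878-30), 0.093 (Gm49794-28) and 0.39 (D130017N08Rik-26). In edgeR Gm2762-32 had -0.052 with TMM, and Gm5878-30 had 0.36 with and 0.61 without TMM. In limma with a pseudocount of 10, Gm5878-30 had 0.10. Leaving out each library gave -0.31 to 0.65 for Gm2762-32, -3.87 to 0.77 for Gm21388-28 and -2.21 to 1.44 for Gm5878-30.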

Other observations

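Across all 18488 sequences of 26 to 32 nt, the share that fell at 10 ng followed some of the features of the 877 and not others. It was 44.5% for sequences ending in G, 40.1% in A, 35.6% in T and 31.2% in C. It was 45.5% at a GC content of at least 50% and 30.4% below 40%, and 46.0% without T at the first base and 34.7% with it. By the fourth base from the 3' end it was 35.7% for G, 36.7% for A, 34.9% for C and 34.7% for T, although G there made up 46.5% of the 877. For A at the tenth base it was 37.8%, against 34.5% for the other bases. These shares are descriptions across sequences, without a test.

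Of the 877, 308 had a sequence that was also listed without its last base. That last base was T in 35.4% of the 308, A in 21.8%, G in 21.8% and C in 21.1%. Of the other sequences, 5069 had such a form, with T in 40.6%, C in 28.1%, A in 20.6% and G in 10.8%.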
